A study of Mus musculus with 24 samples.

Results

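The genes that bring glucose into the cell and commit it to glycolysis were followed across 5 histone marks at 20% and 4% oxygen. They are Slc2a1 and Slc2a3 for glucose transporters, Hk1 and Hk2 for hexokinases, Gpi1 for glucose-6-phosphate isomerase, Pfkl, Pfkp and Pfkm for the subunits of phosphofructokinase, and Pfkfb3 and Pfkfb4 for the bifunctional enzymes that set its activator. The 10 genes were listed by RefSeq symbol, and all 10 were found among the 21887 protein-coding genes of the mm10 annotation used here. Peaks were read over each gene body with 10 kb either side, and H3K36me3 reads over the gene body.

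Glucose enters by facilitated transport, is trapped by phosphorylation, and is turned to fructose 6-phosphate by the isomerase. Phosphofructokinase then adds the phosphate that commits the sugar to glycolysis, and fructose 2,6-bisphosphate, made by the PFKFB enzymes, activates it. In low oxygen many of these genes are known targets of the hypoxia-inducible factors, which bind short elements with the core ACGTG or GCGTG. Of the marks, H3K4me3 lies at active starts, H3K27ac at active starts and enhancers, H3K4me1 at enhancers and promoter flanks, H3K36me3 along transcribed bodies, and H3K27me3 over genes silenced by Polycomb.

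The cells were NOS1+ N1E115, an established mouse neuroblastoma line, kept for 3 days at 20% oxygen (normoxia) or 4% oxygen (hypoxia). Each mark had 2 ChIP-seq libraries per oxygen level, 20 in all, beside 4 inputs that were not analysed here. Replicates 1 and 2 are called set 1 and set 2, after the separate input that each carries in its label. No agent or allele other than oxygen differed by the labels, and they do not say whether a pair of libraries stems from 1 culture or 2, so the spread may be technical. The lists held 26489 to 50496 entries for H3K4me3, 60786 to 94286 for H3K27ac and 99749 to 126503 for H3K4me1. H3K36me3 islands held 13350093 to 25048785 reads per library and H3K27me3 islands 8479517 to 12228541. In set 1 the 4% libraries other than H3K4me1 were on another flow cell than the 20% libraries, so that oxygen and flow cell cannot be told apart there, while set 2 shared a flow cell.

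The labels call the cells neuroblasts from brain. Of 10 noradrenergic neuroblastoma markers, 8 had an H3K4me3 peak within 2.5 kb of a gene end in all 4 libraries, and 8 had H3K36me3 over at least 25% of the body in all 4. Nos1 had H3K36me3 over 95.8% to 100% of its body and no H3K4me3 at either end. Among 5 immune markers, 4 had H3K27me3 over at least 25% of the body in all 4 libraries, and none had H3K4me3 in all 4. None of 5 glia markers had H3K36me3 over at least 25% in all 4 libraries, and 1 of 5 endothelium markers did, Vwf.

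H3K27ac around the transcription starts was broader at 4% oxygen at 6 of the 9 genes with a start in the RefSeq promoter table. These were Slc2a1, Hk2, Gpi1, Pfkl, Pfkp and Pfkfb4. At each, both 4% libraries had more bases under peaks within 2.5 kb of the start than both 20% libraries. The table gave 14 starts, of which 6 were higher and 0 lower in this sense. Over all 21263 starts the shares were 14.1% higher and 4.88% lower. Those shares include starts without H3K27ac in any library, which cannot separate. These windows were added after seeing the data. The windows of the 4 Pfkm starts overlap in part, and those of its middle pair nearly coincide. With 2 libraries against 2 the smallest p an exact permutation test can give is 0.333, so no mark was tested gene by gene from its peaks. In these bulk libraries, a mark in fewer cells and a weaker mark in each cell cannot be told apart.

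The bases before 6 of these starts are shown because H3K27ac peaks that were, or were not, broader at 4% oxygen lie over or beside them. Each run holds the 250 bases before the start, 5′ to 3′ on the gene's strand, from RefSeq on GRCm38.p6, the assembly of mm10. Capitals mark ACGTG or GCGTG on either strand, so the other strand reads CACGT or CACGC.
Slc2a1, chr4:119108495-119108744, plus strand: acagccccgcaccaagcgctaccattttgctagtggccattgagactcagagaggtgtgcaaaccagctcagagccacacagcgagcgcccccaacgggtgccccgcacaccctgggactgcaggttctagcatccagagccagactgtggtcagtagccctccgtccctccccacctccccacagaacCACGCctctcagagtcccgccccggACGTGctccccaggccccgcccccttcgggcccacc
Hk2, chr6:82774455-82774704, minus strand: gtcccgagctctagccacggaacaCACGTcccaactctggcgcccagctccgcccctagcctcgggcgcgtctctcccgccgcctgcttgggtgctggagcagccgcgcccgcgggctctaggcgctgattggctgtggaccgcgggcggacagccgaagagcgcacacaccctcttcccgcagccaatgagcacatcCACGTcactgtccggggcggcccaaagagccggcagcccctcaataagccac
Pfkp, chr13:6648772-6649021, minus strand: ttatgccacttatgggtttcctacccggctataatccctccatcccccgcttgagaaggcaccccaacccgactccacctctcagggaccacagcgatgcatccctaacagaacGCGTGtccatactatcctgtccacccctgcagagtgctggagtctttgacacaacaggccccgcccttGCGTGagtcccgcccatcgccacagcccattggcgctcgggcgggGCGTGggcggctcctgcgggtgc
Pfkfb4, chr9:108991652-108991901, plus strand: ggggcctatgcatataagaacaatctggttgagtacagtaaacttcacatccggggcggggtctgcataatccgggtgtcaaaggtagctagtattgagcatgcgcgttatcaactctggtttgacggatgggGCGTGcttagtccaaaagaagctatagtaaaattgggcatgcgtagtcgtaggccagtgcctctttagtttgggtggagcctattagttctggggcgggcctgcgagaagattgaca
Pfkfb3 upstream start, chr2:11553930-11554179, minus strand: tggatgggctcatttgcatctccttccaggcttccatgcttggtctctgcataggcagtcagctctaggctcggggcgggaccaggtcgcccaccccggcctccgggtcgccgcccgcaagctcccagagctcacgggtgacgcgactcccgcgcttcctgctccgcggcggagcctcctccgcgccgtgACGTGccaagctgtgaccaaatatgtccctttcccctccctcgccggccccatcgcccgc
Pfkfb3 internal start, chr2:11502091-11502340, minus strand: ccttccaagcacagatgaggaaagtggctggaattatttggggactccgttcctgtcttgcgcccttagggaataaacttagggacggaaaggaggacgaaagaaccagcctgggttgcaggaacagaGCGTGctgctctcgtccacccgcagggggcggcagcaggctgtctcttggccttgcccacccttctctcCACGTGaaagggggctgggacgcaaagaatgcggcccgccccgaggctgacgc
The first 4 runs lie before starts where H3K27ac was broader at 4% oxygen, and the last 2 before starts where the libraries overlapped. Both kinds hold the letters in the runs shown. In the window that runs to 50 bases after the start, 7 of the genes' 14 windows held ACGTG and 11 held ACGTG or GCGTG. The windows of the middle Pfkm starts overlap and share a GCGTG, which is counted in both. Over all 21263 windows of that length, 20.9% held ACGTG and 49.3% held either. Of the starts with broader H3K27ac that are not shown, the window of Gpi1 held neither and that of Pfkl held 1 GCGTG. The palindrome CACGTG, seen before the internal Pfkfb3 start, is read once on each strand. A match in these windows describes the letters and no binding was measured.

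Around the Slc2a1 start, H3K27ac covered 1.16 and 1.66 kb of the 5 kb window at 20% oxygen, in sets 1 and 2, and 3.55 and 4.52 kb at 4%. Both 4% libraries stood above both 20% libraries by a wide margin. At the Hk2 start the values were 2.49 and 1.99 kb at 20% and 3.44 and 3.85 kb at 4%. At the Gpi1 start they were 2.92 and 2.29 kb against 4.42 and 4.36 kb. These 3 genes, for a transporter, the inducible hexokinase and the isomerase, had the widest gaps.

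At the Pfkl start H3K27ac covered 3.09 and 3.02 kb at 20% oxygen and 3.66 and 3.56 kb at 4%. At the Pfkp start the values were 3.10 and 3.23 kb against 3.33 and 3.50 kb. At the Pfkfb4 start they were 1.69 and 2.20 kb against 2.20 and 2.73 kb, with the 20% library of set 2 only 1 base below the 4% library of set 1. The separation was thus narrow at the Pfkp and Pfkfb4 starts. The upstream Pfkfb3 start overlapped, with 2.02 and 2.55 kb at 20% oxygen and 2.11 and 2.65 kb at 4%. None of the 4 Pfkm starts was separated.

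Hk1 has a pair of RefSeq starts. The upstream one had no peak of H3K4me3, H3K27ac, H3K4me1, H3K36me3 or H3K27me3 within 2.5 kb in any library. The internal one was covered by H3K27ac over 4.76 to 4.90 kb of 5 kb and by H3K4me3 over 4.81 to 5.00 kb in all 4 libraries, so that the window was nearly filled at both oxygen levels.

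H3K4me3 at the starts differed little. Of the 14 starts, 2 were higher at 4% oxygen without overlap, Slc2a1 and Pfkl, and 2 lower, the upstream starts of Pfkm and Pfkfb3, where all starts gave 3.06% higher and 10.1% lower. At Slc2a1 H3K4me3 covered 2.72 and 2.90 kb at 20% and 3.15 and 3.14 kb at 4%. At Pfkl it covered 3.60 and 3.66 kb against 3.78 and 3.91 kb. H3K36me3 within 2.5 kb was broader at 4% oxygen at 5 starts, those of Slc2a1, Hk2, Gpi1 and Pfkp and the first of Pfkm, and narrower at 3, all of Pfkm, against 7.79% and 3.26% of all starts. The first Pfkm start lies inside Senp1, whose islands reach it. H3K27me3 touched only the middle Pfkm starts, with 0 starts higher and 0 lower against 3.24% and 1.04% of all starts.

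Over the gene bodies with 10 kb either side, H3K27ac covered more at 4% oxygen without overlap at 5 of the 10 genes, Slc2a1, Hk2, Gpi1, Pfkp and Pfkfb4, and less at 0. Among all protein-coding genes 15.6% were higher and 5.00% lower in the same way. The median difference over the 10 genes was 3.39 percentage points of the window, and 0 over all protein-coding genes. All 10 genes carried H3K27ac, and over the 14341 genes with it in any library the median was 0.374. Shares of all genes, here and for the other marks, include genes without the mark, which cannot separate. Within sets the median over the 10 genes was 1.48 points in set 1 and 5.73 in set 2. In both sets 7 genes were higher, where 27.4% of all genes were and 10.3% were lower in both. In whole, the deposited 20% lists of H3K27ac covered 59.6 and 65.4 Mb and the 4% lists 56.9 and 75.2 Mb. The whole list thus covered less at 4% in set 1 and more in set 2. The part of list size in the differences at these genes was not tested. With the same number of peaks taken from each list, 7 of the 10 were higher and 0 lower, against 17.6% and 5.94% of all genes.

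**Figure D1:**
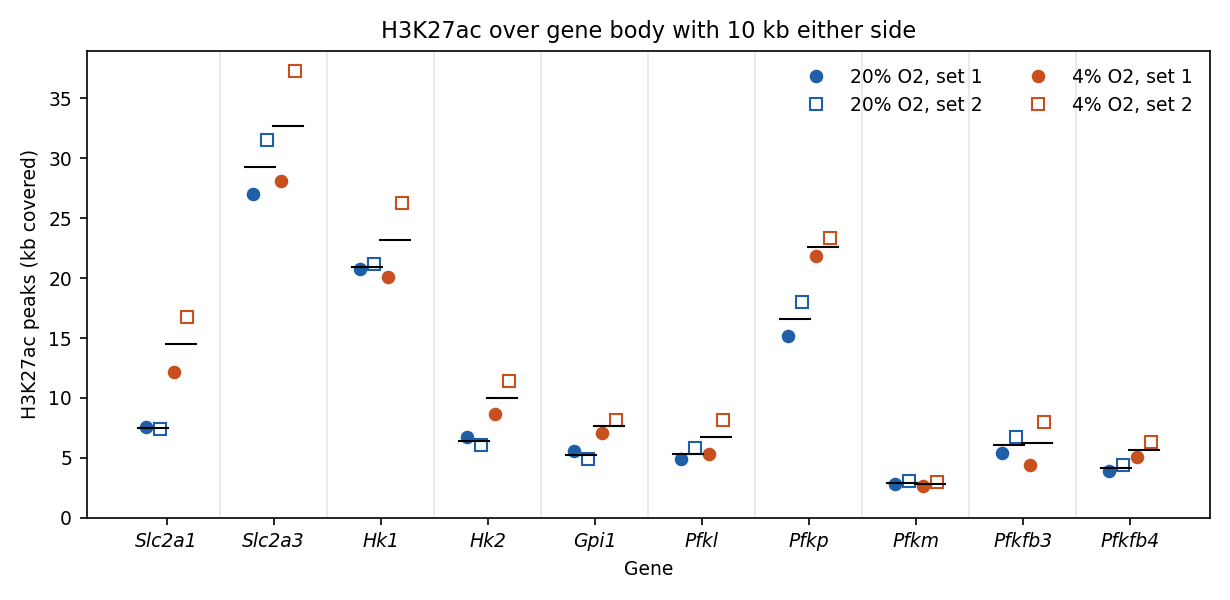
Kilobases covered by H3K27ac peaks (vertical axis) over each gene body with 10 kb either side (horizontal axis), for 2 libraries at 20% oxygen and 2 at 4%; short lines are the mean of the 2 libraries. Slc2a1, Hk2, Gpi1, Pfkp and Pfkfb4 have both 4% points above both 20% points, and Slc2a1 shows the largest ratio of means, 1.93.

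Slc2a1, the broadly expressed glucose transporter GLUT1, spans chr4:119108745-119137330. H3K27ac covered 7.62 and 7.41 kb of its 48.6 kb window at 20% oxygen and 12.2 and 16.7 kb at 4%, a ratio of means of 1.93. The 20% libraries lay close together and both 4% libraries well above them. Slc2a1 held 4 of the 7 H3K27ac regions at these genes that had a peak in both 4% libraries and in neither 20% library; 117 merged regions touched the 10 windows. These regions lay 10.3 and 6.55 kb before the start and 32.3 and 33.1 kb after it, the last 2 beyond the end of the gene. They span chr4:119097603-119099321, chr4:119102096-119102303, chr4:119140584-119141502 and chr4:119141583-119142040. Over all 97912 H3K27ac regions, 2.59% were of this 4%-only kind and 1.55% of the reverse kind. Over the gene body alone H3K27ac covered 3.27 and 4.22 kb at 20% against 3.41 and 7.73 kb at 4%, so the separation ended there. The higher coverage at 4% in set 1 thus lay before the start and beyond the end.

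**Figure D2:**
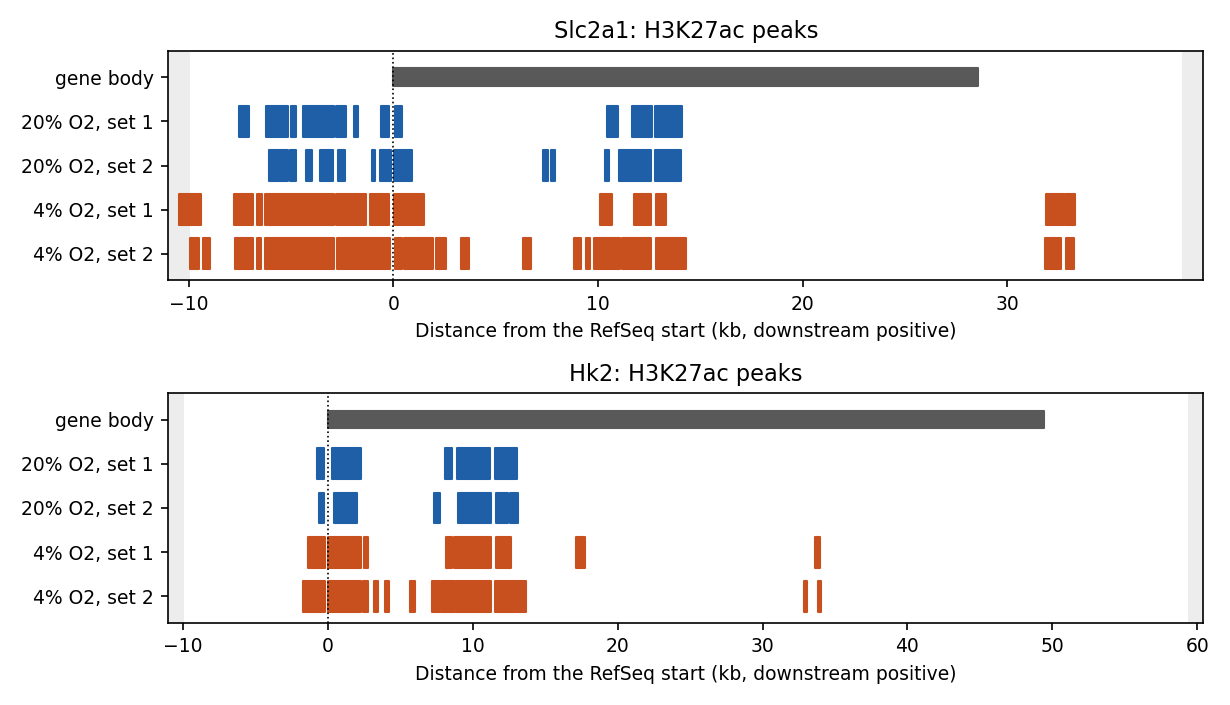
H3K27ac peaks (bars) of the 4 libraries along Slc2a1 (top) and Hk2 (bottom), against distance from the RefSeq start in kb, with downstream positive; the grey bar is the gene body, the dotted line the start, and shaded edges lie outside the 10 kb flanks. At Slc2a1 the 4% libraries alone have peaks centred 10.3 kb before and 32.3 and 33.1 kb after the start, and at Hk2 about 33.8 kb after it.

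Slc2a3, the high-affinity transporter of neurons GLUT3, spans chr6:122727809-122802363 and had the most H3K27ac of all 10 genes. Peaks covered 27.05 and 31.5 kb of its 94.6 kb window at 20% oxygen and 28.1 and 37.2 kb at 4%. The oxygen levels overlapped, though each 4% library was above the 20% library of its set. Its highest H3K4me3 peak ranked within the top 2.05% of each list by the authors' score. None of its H3K27ac regions had a peak in both libraries of 1 oxygen level and in neither of the other.

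The hexokinases differed in H3K27ac. Hk2, the inducible isoform bound to mitochondria, spans chr6:82725025-82774454 and went from 6.76 and 6.12 kb at 20% oxygen to 8.64 and 11.4 kb at 4%, a ratio of 1.56. Its 4% libraries were clear of its 20% libraries. It held 2 of the 4%-only regions, 2.60 kb and 33.8 kb after the start, at chr6:82771672-82772034 and chr6:82740443-82740838. Hk1, the housekeeping hexokinase of brain, spans chr10:62268855-62379920. Its H3K27ac covered 20.7 and 21.2 kb at 20% and 20.1 and 26.3 kb at 4%, with overlap. It held the 2 regions with a peak in both 20% libraries and in neither 4% library, 45.8 and 46.4 kb after the internal start, both under 0.5 kb long. No test compared Hk2 with Hk1.

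Gpi1, the isomerase gene at chr7:34201327-34230336, had 5.61 and 4.92 kb of H3K27ac at 20% oxygen and 7.08 and 8.17 kb at 4%, a ratio of 1.45. Its window also takes in parts of Pdcd2l and Garre1, but the gene body alone was separated too.

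Among the phosphofructokinase subunits, Pfkp had the largest ratio of H3K27ac coverage and Pfkm the smallest. Pfkp, the platelet type that is also abundant in brain and tumours, spans chr13:6579874-6649060. It went from 15.2 and 18.0 kb to 21.9 and 23.3 kb, a ratio of 1.36. It held the seventh 4%-only region, at the edge of the window 10.5 kb before the start. Pfkl, the liver type, spans chr10:77986947-78009807 and had 4.91 and 5.81 kb at 20% against 5.32 and 8.17 kb at 4%. These overlapped over the wide window, while the body alone and a flank of 5 kb gave separation. Pfkm, the muscle type, spans chr15:98092589-98132447 and had 2.79 and 3.06 kb against 2.62 and 2.99 kb, within the spread.

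The PFKFB genes differed as well. Pfkfb4, whose enzyme both makes and removes the activator of phosphofructokinase, spans chr9:108988272-109032236. It went from 3.90 and 4.44 kb to 5.09 and 6.32 kb, a ratio of 1.37. Pfkfb3, whose enzyme mainly makes that activator, spans chr2:11471430-11554071. It had 5.39 and 6.77 kb at 20% oxygen and 4.39 and 8.03 kb at 4%, the 20% values lying between the 4% ones. No difference between the PFKFB genes was tested.

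H3K4me1 went the other way, as it did across the genome. It covered less at 4% oxygen without overlap at 6 of the 10 genes, Slc2a3, Hk1, Gpi1, Pfkm, Pfkfb3 and Pfkfb4, and more at 0. Of all protein-coding genes 41.1% were lower and 0.187% higher, so the share among these genes is near the background. The median difference was -4.31 points over the 10 genes, -1.02 over all genes and -2.65 over the 14428 genes with H3K4me1 in any library. The whole 20% lists covered 106 and 81.8 Mb and the whole 4% lists 61.0 and 63.8 Mb, a difference that moves with that of the genes. With the same number of peaks from each list, 4 genes were lower, Slc2a3, Hk1, Pfkm and Pfkfb4, and 1 higher, Hk2, where 34.8% of all genes were lower and 0.324% higher.

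**Figure D3:**
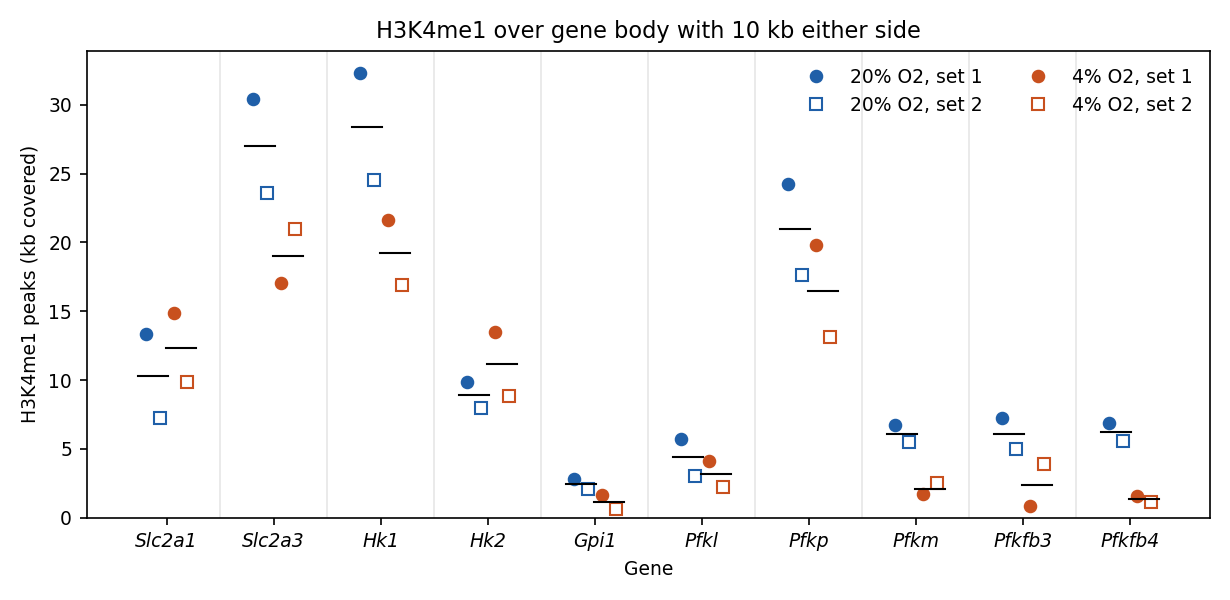
Kilobases covered by H3K4me1 peaks (vertical axis) over each gene body with 10 kb either side (horizontal axis), in the 4 libraries; short lines are means of 2 libraries. At 6 genes, Slc2a3, Hk1, Gpi1, Pfkm, Pfkfb3 and Pfkfb4, both 4% points are below both 20% points, while Slc2a1 and Hk2 have the higher mean at 4%.

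Slc2a1 and Hk2 had the higher mean of H3K4me1 at 4% oxygen, each within the spread of libraries. At Slc2a1 H3K4me1 covered 13.4 and 7.26 kb at 20% and 14.9 and 9.86 kb at 4%, and at Hk2 9.88 and 7.98 kb against 13.5 and 8.82 kb. Each was higher at 4% within both sets, which 0.480% of all genes were, while 48.6% were lower in both. The 2 sets differed more than the oxygen levels at Slc2a1. Slc2a1 and Pfkl held the 2 H3K4me1 regions with a peak in both 4% libraries and in neither 20% library, 4.42 and 4.79 kb after their starts. Of the 135 regions at these genes, 13 were of the reverse kind. Over all 153738 regions the shares were 0.807% and 6.22%.

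Pfkfb4 had the lowest ratio of H3K4me1, from 6.88 and 5.55 kb at 20% oxygen to 1.60 and 1.17 kb at 4%, a ratio of 0.223. Pfkm went from 6.74 and 5.49 kb to 1.70 and 2.55 kb. Pfkfb3 went from 7.23 and 4.99 kb to 0.853 and 3.94 kb, where the 4% libraries were far apart. Hk1 went from 32.3 and 24.5 kb to 21.6 and 16.9 kb, and Slc2a3 from 30.4 and 23.6 kb to 17.0 and 21.0 kb. Gpi1 had little H3K4me1, 2.81 and 2.11 kb against 1.68 and 0.608 kb. Around the starts, 8 of 14 were lower at 4% and 0 higher, where all starts gave 30.6% and 0.165%. The lower starts belong to 5 of the 9 genes with a start, Hk1, Gpi1, Pfkm, Pfkfb3 and Pfkfb4. All Pfkm starts are among them, and their windows overlap in part, so they are not separate counts.

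H3K36me3, the mark of transcribed bodies, was higher at 4% oxygen at some of these genes and lower at others. Levels are given as reads per kb of gene body per 1000000 reads in islands, called RPKM here. In RPKM, both 4% libraries were above both 20% libraries at Slc2a1, Hk1 and Hk2, and below them at Pfkm and Pfkfb3. Of all 21887 genes 8.31% were higher and 10.4% lower in this sense, 1818 and 2268 genes. Only 11744 genes had reads in any library, as all of these genes did, so the shares among genes with reads are larger. By mean level, Pfkl stood above 89.4% of genes with reads, Hk2 above 84.9% and Gpi1 above 84.3%. Hk1 and Pfkp followed at 70.9% and 69.3% and Slc2a1 at 56.7%. Pfkm, Slc2a3, Pfkfb3 and Pfkfb4 stood at 37.1%, 36.4%, 36.3% and 26.0%. Over the 4 libraries, the ranges of neighbours in that order overlapped.

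**Figure D4:**
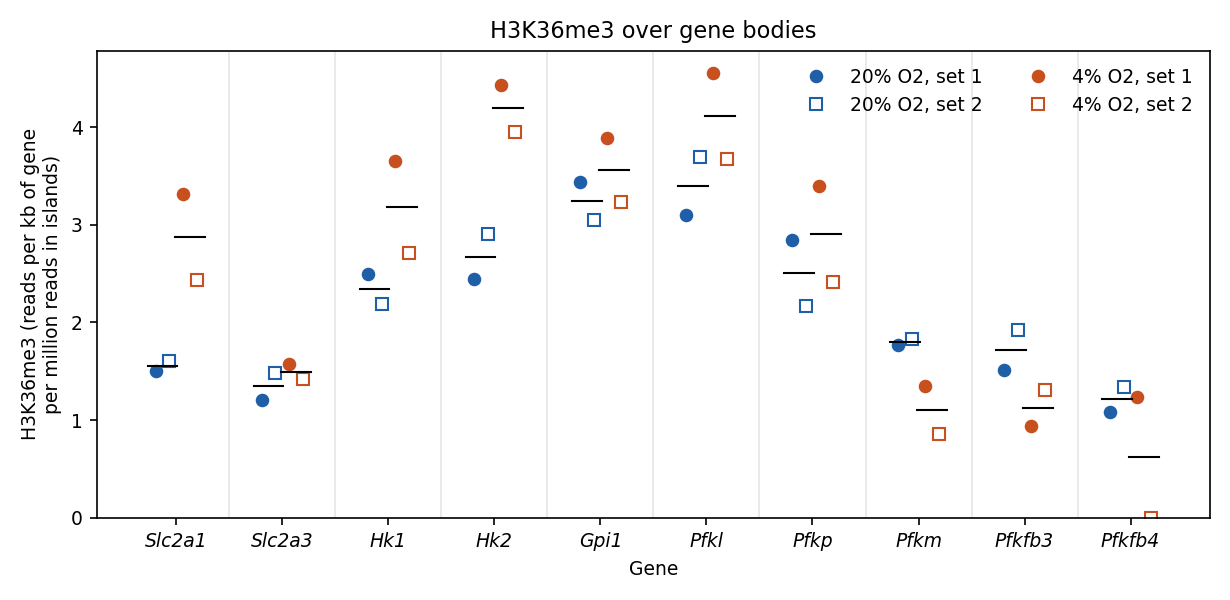
H3K36me3 RPKM, reads per kb of gene body per 1000000 reads in islands (vertical axis) for each gene (horizontal axis) in the 4 libraries; short lines are means of 2 libraries. Slc2a1, Hk1 and Hk2 have both 4% points above both 20% points, Pfkm and Pfkfb3 below, and Pfkfb4 lies at 0 in the 4% library of set 2.

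Slc2a1 had an RPKM of 1.51 and 1.60 at 20% oxygen and 3.31 and 2.43 at 4%. The 4% mean, 2.87 ± 0.62 (SD, n = 2), was above the 20% mean, 1.55 ± 0.068 (SD, n = 2). In edgeR's quasi-likelihood test the log2 difference was 0.89 (SE 0.18, Benjamini-Hochberg adjusted p = 0.673). Hk2 had 2.44 and 2.90 against 4.43 and 3.95, with a log2 difference of 0.66 (SE 0.12, edgeR adjusted p = 0.668). Hk1 had 2.495 and 2.19 against 3.65 and 2.71, with a log2 difference of 0.45 (SE 0.18, edgeR adjusted p = 0.874). None of the 3 passed the threshold of 0.05. With the lowest 25% of islands by reads per kb left out of each library, the Slc2a1 difference was 1.83 (edgeR adjusted p = 0.344). In that setting it was 0.65 at Hk2 and 0.44 at Hk1. An island near the cut can be left out of one library and kept in another. The part of this in the Slc2a1 value was not tested. The Hk1 difference was 0.25 on leaving out the set 1 library at 4%.

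Of the remaining genes Pfkl had an RPKM of 3.10 and 3.70 at 20% against 4.55 and 3.68 at 4%. Pfkp had 2.85 and 2.17 against 3.39 and 2.41, and Gpi1 had 3.44 and 3.05 against 3.89 and 3.23. Slc2a3 had 1.21 and 1.49 against 1.57 and 1.42. All 4 overlapped, and their log2 differences lay between 0.14 and 0.29. With 1 library left out, the difference at Pfkl lay between 0.14 and 0.41 and that at Gpi1 between 0.036 and 0.24.

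Of the 11146 genes tested, edgeR called 0 higher and 0 lower at 4% oxygen (0% each), with 681 at an unadjusted p under 0.05, and 0 of the 10 genes, all of which were tested. With the set as a block it again called 0 and 0 (0% each). DESeq2 called 2.13% of genes higher and 3.85% lower, and of the 10 genes Slc2a1 (log2 0.88, adjusted p = 0.000278) and Hk2 (log2 0.65, adjusted p = 0.000122), both higher. In reads per covered length, with the set as a block, edgeR called 4.33% of 9724 genes higher and 3.42% lower. In that fit 4 of the 9 genes tested rose and 0 fell: Slc2a1 by 0.74 (adjusted p = 9.49e-11), Hk2 by 0.53 (5.63e-08), Hk1 by 0.38 (0.000251) and Slc2a3 by 0.25 (0.0424), all on the log2 scale. Pfkfb4 could not be tested there. That blocked fit compares density inside each library's own islands and does not see an island that is missing. Its p-values match a normal tail of the log2 difference over its SE. They thus rest on a spread shared across genes, with little of each gene's own. With the same offset and no block, edgeR called 0 genes higher and 1 lower, and none of these genes.

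At Pfkfb3 a whole island was called in both 20% libraries and in neither 4% library. H3K36me3 covered 53.2% and 53.7% of its body at 20% oxygen and 36.02% and 35.1% at 4%. The island was 15.2 kb long in each 20% library and lay behind the upstream start, within chr2:11536001-11551600. Of the 23 H3K36me3 regions at these genes it is the only one with an island in both libraries of 1 oxygen level and in neither of the other. Over all regions 1.01% were of this kind for 4% oxygen and 2.68% for 20%. Shorter islands, of 3.00 kb at Pfkm and 2.20 kb at Slc2a3, were each seen in 1 of the 20% libraries. Its density was 2.001 and 2.57 RPKM, here per kb of island. The lowest 5% of islands lay under 1.51 and 1.47 in the 4% libraries. The part of island density in this result was not tested. The island behind the internal start, which lies over the end of the gene, was present in all 4. It had 3.29 and 4.10 at 20% and 2.61 and 3.72 at 4%, which overlap. The fit over merged islands with the set as a block, given below, called it lower (log2 -0.29, edgeR adjusted p = 0.0117). Over the whole body Pfkfb3 had 1.51 and 1.92 against 0.941 and 1.31 RPKM, with a log2 difference of -0.59 (SE 0.25, edgeR adjusted p = 0.886). Leaving out the set 1 library at 4% gave -0.35.

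**Figure D5:**
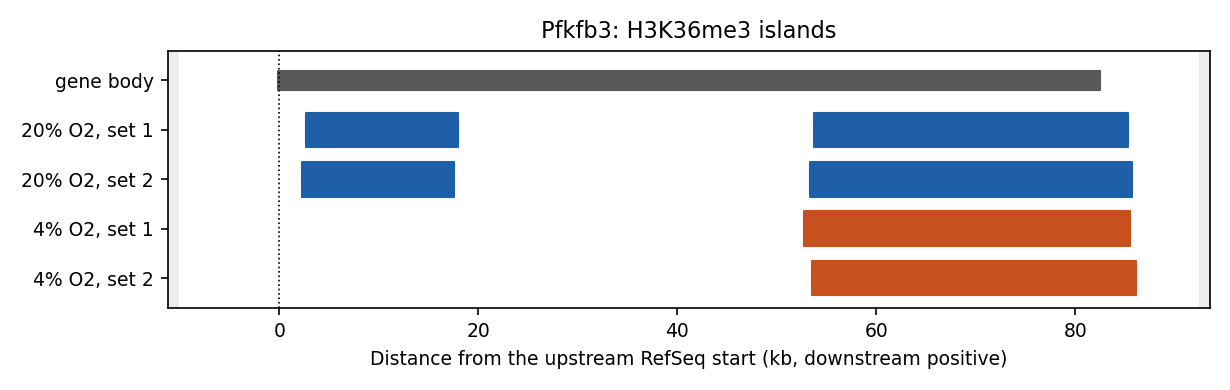
H3K36me3 islands (bars) of the 4 libraries along Pfkfb3, against distance from the upstream RefSeq start in kb, with downstream positive; the grey bar is the gene body and shaded edges lie outside the 10 kb flanks. The 15.2 kb island behind the upstream start is present in both 20% libraries and in neither 4% library, and the island over the end of the gene is present in all 4.

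Pfkm had an RPKM of 1.77 and 1.83 at 20% oxygen and 1.35 and 0.860 at 4%, with a log2 difference of -0.70 (SE 0.24, edgeR adjusted p = 0.831). Leaving out the set 2 library at 4% gave -0.43. Its islands covered 63.8% and 56.8% of the body at 20% and 50.3% and 32.3% at 4%. The islands that begin near the middle starts at 20% began further into the gene at 4%. Over merged islands in reads per covered length with the set as a block, edgeR called 5.81% of 10858 regions higher and 4.90% lower. Without the block it called 0 either way. With the block, 5 regions at these genes were higher, 1 at Slc2a1 and 2 each at Hk2 and Hk1, and 2 lower. The lower ones were the island over the end of Pfkfb3 (log2 -0.29, adjusted p = 0.0117) and an island that touches the first Pfkm start (log2 -0.38, adjusted p = 0.000114). That second island, at chr15:98032601-98092800, lies almost wholly over the neighbour Senp1, a SUMO protease gene, and not over Pfkm. The island over the Pfkm body, at chr15:98109801-98145600, runs past the end of that gene into the neighbour Asb8. With the part beyond Pfkm included, it had a log2 difference of -0.20 (adjusted p = 0.130) in the same fit. Over the Pfkm body alone, reads per covered length with the block gave -0.18 (edgeR adjusted p = 0.273). The lower reads of Pfkm over its body went with less covered length, and its density was not called lower. That fit sees only density inside called islands, so it cannot tell a loss of length from a loss of density. The part of each was not tested.

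Pfkfb4 had an RPKM of 1.09 and 1.34 at 20% oxygen, 1.24 in the 4% library of set 1 and 0 in that of set 2. No island was called there in that library. In the other libraries island density over the gene was 1.32 to 1.86 at 20% and 1.54 to 2.02 at 4%. These values lie under the library medians, 2.07 to 2.32. The lowest, 1.32, is under its library's 5th percentile of 1.35, and the others are above theirs. The edgeR log2 difference was -0.98 with an SE of 2.44, and 0.02 without that library, so 1 library sets its direction.

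In covered length over the wide window, H3K36me3 was higher without overlap at 4 genes, Slc2a1, Hk1, Hk2 and Gpi1, and lower at 3, Pfkm, Pfkfb3 and Pfkfb4, where 6.04% and 12.9% of all genes were. The Pfkfb4 window had 42.6 and 45.1 kb at 20% oxygen and 35.5 and 0 kb at 4%. In that last library the flanks, which reach into neighbouring genes, were empty too. The Pfkm window takes in islands over its neighbours Senp1 and Asb8. The differences at the higher genes were small, from 27.3 to 30.6 kb in the mean at Slc2a1 and from 38.3 to 41.0 kb at Gpi1. Over the wide window H3K4me3 was higher at 2 genes and lower at 0, against 3.08% and 11.2% of all genes. Slc2a1 went from 3.68 and 2.90 kb to 3.89 and 4.44 kb and Hk2 from 3.96 and 4.27 kb to 4.78 and 4.83 kb. Of the 50 H3K4me3 regions at these genes, 0 had a peak in both libraries of 1 oxygen level and neither of the other, against 0.482% (4%) and 0.841% (20%) of all regions. The median H3K4me3 difference was 0.32 points, with -0.90 in set 1 and 1.46 in set 2, so the sets disagreed in sign.

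H3K27me3, the Polycomb mark, was nearly missing from these genes. It had no island over 8 of the 10 windows in any library. Pfkm had an island of 5.00 kb and 2.60 kb at 20% oxygen, between its first and its middle starts, one of 8 kb in the 4% library of set 1 and none in that of set 2. Near Hk2 an island reached into the flank in the 4% library of set 1 alone. Thus 0 genes were higher and 0 lower without overlap, against 8.15% and 1.83% of all genes, and 0 of 2 regions had an island in both libraries of 1 oxygen level and neither of the other, against 1.92% (4%) and 2.92% (20%) of all regions.

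Other genes of the pathway were read from 2 lists. In H3K27ac, 6 of 16 genes of lower glycolysis were higher at 4% without overlap and 0 lower, where 15.6% of all genes were higher and 5.00% lower. The largest difference was at Ldha, lactate dehydrogenase A, with 35.1% and 36.2% of the window covered at 20% and 39.2% and 47.4% at 4%. Pkm, pyruvate kinase, had 19.0% and 16.0% against 22.0% and 28.0%. Aldoa, Pgam1, Pgk1 and Aldoc were the other 4. The median over this list was 4.65 points, 0 over all genes and 0.374 over genes with H3K27ac in any library.

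Among 20 relatives of the entry genes, 2 were higher in H3K27ac and 1 lower, with a median of 0. Hk3, another hexokinase, had 1.18% and 1.03% against 1.62% and 4.05%. Pfkfb2, another PFKFB gene, had 2.94% and 2.77% against 3.56% and 3.63%. Tigar, a fructose bisphosphatase, had 0.83% and 2.01% at 20% and 0% in both 4% libraries. These counts are near the background of all genes given above.

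In H3K36me3 density with the set as a block, edgeR called 3 of the 12 lower glycolysis genes tested higher and 0 lower, and 0 of 7 relatives, against 4.33% higher and 3.42% lower of all genes tested. The 3 were Aldoc (log2 0.87), Eno2 (0.67) and Pkm (0.30), of which Eno2 was named after its value was seen. These calls carry the limit given above for that fit. Without the block and the covered length, edgeR called 0 of 13 and 0 of 10. DESeq2 called 2 of the 13 higher, Eno1 and Eno2, both enolase genes, and 1 lower, Bpgm, for bisphosphoglycerate mutase, against 2.13% and 3.85% of all genes. Bpgm had 53 and 391 reads at 20% oxygen and 0 in both 4% libraries (DESeq2 adjusted p = 0.000202). Of the 10 relatives DESeq2 called 0 higher and 1 lower, Tigar, with an RPKM of 1.75 and 2.001 at 20% and 0.985 and 0.944 at 4% (log2 -0.95, adjusted p = 7.24e-08). These 4 DESeq2 genes were named after their values were seen.

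The gene with the most similar set of 20 covered shares, over 5 marks and 4 libraries, was sought for each of the 10 genes outside 1 Mb. The smallest Euclidean distance was between Pfkfb3 and Dcps, at 5.96 points, and the largest between Slc2a3 and Prss57, at 16.8. For Slc2a1 it was Ccdc97 (15.6), for Hk2 Atp6v0e (10.8) and for Hk1 Nova2 (10.5). For Pfkl it was Hdgfl2 (8.84), for Pfkp Mfsd6 (12.5), for Pfkm Sdhd (16.5) and for Pfkfb4 Haus8 (16.7). The median distance to all genes was 81.9 to 138 points.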

How the data were processed

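Per the submitters' processing notes, BWA, Picard, MACS2 and SICER were used with mm10, and per the file headers each library had its own peak list. No version was named. MACS2 lists hold H3K4me3, H3K27ac and H3K4me1, SICER lists H3K36me3 and H3K27me3. The authors' deposited MACS2 score is a −log10 value, taken as −log10 q from its layout and used only to rank peaks, and the deposited SICER lists give read counts per island. The interval file of each second MACS2 library was listed under the first library and matched to it by names and scores, with 100% of entries the same as in its summit file.

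Covered bases were summed over each gene with 10 kb either side, and a gene was called higher or lower when both 4% libraries lay beyond both 20% libraries. Island reads were shared over gene bodies in proportion to covered length and tested with edgeR 4.0.16 (quasi-likelihood, TMM, Benjamini-Hochberg, threshold 0.05), without block, on all genes that passed its filter. Alternatives were the set as a block, DESeq2 1.42.0, an offset of covered length and merged islands. The summing of covered bases and reads, and the edgeR fit without block or offset, were tested on simulated data. The alternative fits were not. The numbers of the sets were treated as pairing the libraries: each set has its own input number in the labels and, for set 2, its own flow cell, and deviations of a set correlated at 0.234 over 11146 genes. Named genes were all 10 members, and list genes separated in H3K27ac or called by edgeR, at most 6 per list, largest first. The members and lists were chosen with earlier results of these data known. The gene most similar to Gpi1 is not reported here. Depth beyond island reads is not in the lists.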

Additional observations from a re-analysis of the deposited data

How the results depend on the processing

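The count of H3K36me3 genes called depended on the fit. The replicate block alone, no TMM, no filter and the lowest 25% of islands left out gave 0 calls each way, as did leaving out each library (range 0 to 0). The covered length offset gave 1 gene lower, the offset with the replicate block 421 higher and 333 lower, DESeq2 237 and 429, and merged islands with offset and the replicate block 631 and 532, with 5 regions at the 10 genes higher and 2 lower. At the 10 genes the offset with the replicate block gave 4 higher and DESeq2 2. The sign of the H3K36me3 log2 difference turned at Slc2a3 without 20% oxygen set 1 (range over left-out libraries -0.0013 to 0.31) and at Pfkp without 4% oxygen set 1 (-0.018 to 0.42). At Pfkfb4 it was 0.018 without 4% oxygen set 2 and -1.15 without 20% oxygen set 1; without 4% oxygen set 1 the 4% level had no reads, and the fitted value, -12.88 (edgeR adjusted p = 0.0751), depends on the prior count and is no bound.

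The median H3K27ac difference stayed positive under every alternative run, 0.668 to 6.24 points when a library was left out. Without the 4% library of set 1, 9 genes were higher, where 40.8% of all genes were, and without that of set 2, 5 were higher and 3 lower, where 18.5% and 21.7% of all genes were. The median H3K4me1 difference lay between -6.83 and -2.25 points when a library was left out, and between -5.59 and -2.91 within sets (replicate block). For H3K4me3, leaving out a library gave -0.300 to 0.912 points, with 6 genes higher and 0 lower without either set 1 20% or set 1 4% (21.3% and 25.8% of all genes higher), and 2 higher and 4 lower without either set 2 library (36.4% and 41.3% of all genes lower). H3K27ac regions with a peak in both 4% libraries and neither 20% library numbered 11 when 50% of the region had to be covered, where the share of all regions was 3.89%, against 7 and 2.59%. Windows around the starts were added after seeing the data. With 2 libraries a group, gene-level differences in covered length cannot be tested.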
